A study of Mus musculus with 12 samples.

Results

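The genes described here build and run the DNA replication fork or supply its nucleotides. They are a list of 53 mouse genes chosen by name, from the loading of the replicative helicase to pyrimidine synthesis. Of these, 43 had enough reads to be tested, among 13247 tested genes of 38481 with a listed transcript. RNA was sequenced from C2C12, a mouse myoblast line that divides in serum and can fuse into muscle fibres. All cells carried 1 of 2 siRNAs for 3 days, either a single sequence against Crebl2, a bZIP protein related to CREB, or a control against Renilla luciferase (Luc). They were then given 20 nM rapamycin or its solvent ethanol for 12 hours. Each of the 4 groups (Luc siRNA with ethanol, Luc siRNA with rapamycin, Crebl2 siRNA with ethanol and Crebl2 siRNA with rapamycin) held 3 libraries. Nothing in the labels states that replicates were grown separately. The p-values therefore reflect how far these libraries scatter, which may be purely technical.

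In dividing cells the origin recognition complex, Cdc6 and Cdt1 load the Mcm2 to Mcm7 ring onto DNA in G1 phase, and Cdc45 and the GINS complex turn that ring into an active helicase at the start of S phase. Polymerases, the sliding clamp Pcna and its loader Rfc then copy the strands, while ribonucleotide reductase, thymidylate synthase and salvage kinases supply deoxynucleotides. Many of these genes are transcribed in a wave in late G1 and S phase under E2F factors. Rapamycin inhibits mTOR complex 1, a kinase complex that promotes growth, cell cycle entry and pyrimidine synthesis.

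The deposited values were read counts per transcript, which were summed per gene. How reads shared by several listed transcripts were treated was not stated. They were taken here as not counted, so that each gene is measured only on its countable share. It is the percentage of the gene's exonic bases that belong to a single listed transcript on the gene's strand. This share was at least 90% in 26 of the 43 tested genes. Levels are given in CPM, a read-count rate scaled to library size with TMM factors, and ± is the SD of 3 libraries. Fold changes are log2 ratios from edgeR's quasi-likelihood fit, and a gene is called where its p, adjusted by Benjamini-Hochberg across the 13247 genes, is under 0.05. The 10 genes that did not pass the count filter were Cdc7, Dbf4, Gmnn, Rfc1, Rfc4, Prim1, Fen1, Rnaseh2a, Chaf1b and Uhrf1. They had between 0 (Fen1) and 70 (Rnaseh2a) counts over all 12 libraries, and their countable shares ran from 1.94% in Rfc1 to 24.2% in Gmnn.

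Library totals ran from 33404087 to 42891015 counts. Crebl2 itself was lower in all 6 libraries with its siRNA (4.87 to 10.7 CPM, against 23.8 to 40.0 CPM with the Luc siRNA). The myoblast markers Myod1 (175 to 280 CPM) and Des (1375 to 1678 CPM) were present in every library, as were the other 4 on that list. Their levels were not all constant. With the Crebl2 siRNA Msc rose by 0.93 in ethanol and 0.89 in rapamycin on the log2 scale (edgeR adjusted p 9.4e-07 and 2.3e-06). Myod1 and Myf5 fell with it in ethanol by 0.28 and 0.26 (edgeR adjusted p 0.0091 and 0.0027). In rapamycin Myf5 fell with it by 0.20 (edgeR adjusted p 0.021), Cdh15 rose by 0.41 (edgeR adjusted p 6.6e-05) and Myod1 was not called. Under the Crebl2 siRNA rapamycin raised Myod1 by 0.37 and lowered Msc by 0.28 (edgeR adjusted p 0.0010 and 0.015). Cdh15 fell with rapamycin by 0.80 and 0.39 with the Luc and Crebl2 siRNAs, falls that differed by 0.41 (edgeR adjusted p 0.024). Des and Pax7 were not called in any comparison. Of 9 markers of other cell types, Alb (hepatocytes), counted on all its bases, had no count in any library. Ptprc (immune cells) and Rbfox3 (neurons) had none either, on 8.38% and 23.4% of their bases. Pecam1 and Cdh5 (endothelium) and Epcam and Cdh1 (epithelium) were at or below 0.250 CPM. Cdh5 and Epcam were counted on all their bases, Pecam1 on 19.9% and Cdh1 on 27.7%. Cd68, an immune marker, was at 0.277 to 0.623 CPM on 22.0% of its bases. The fibroblast marker Pdgfra was at 1.21 to 2.26 CPM in every library, on 21.2% of its bases. Reads shared by transcripts are taken as missing from these levels. Pdgfra was higher with rapamycin by 0.60 and 0.50 on the log2 scale with the Luc and Crebl2 siRNAs (edgeR adjusted p 0.0030 and 0.0082). Myog, a transcription factor of muscle differentiation, lay at 177 to 217 CPM with the Luc siRNA and 15.9 to 24.3 CPM with the Crebl2 siRNA in ethanol, and at 67.7 to 79.6 and 6.53 to 11.5 CPM in rapamycin. The part of the myoblast markers, Pdgfra and Myog in the results that follow was not tested. In these bulk samples, fewer cells in S phase and less RNA per cell cannot be told apart.

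Rapamycin lowered nearly the whole list. With the Luc siRNA, 42 of the 43 tested genes fell and none rose, 25 of them at least 2-fold, and the median log2 fold change was −1.09 (range −1.86 to −0.25). Over all tested genes, 21.6% were called lower and 4.0% at least 2-fold lower, and the median was 0.02. With the Crebl2 siRNA, 42 fell and none rose, 28 at least 2-fold, with a median of −1.19 (range −2.19 to −0.19), against 25.6% called lower, 3.99% at least 2-fold lower and a median of −0.01 over all tested genes. The 3 rapamycin libraries lay wholly below the 3 ethanol libraries in 42 genes with the Luc siRNA and 41 with the Crebl2 siRNA, as did 25.5% and 29.3% of all tested genes.

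The Crebl2 siRNA moved the same list the other way and by less. In ethanol, 32 of the 43 genes rose and none fell, with a median log2 fold change of 0.33 (range −0.27 to 0.86), against 21.4% called higher and a median of 0.01 over all tested genes. In rapamycin, 25 rose and none fell, with a median of 0.26 (range −0.34 to 0.65), against 16.3% called higher and a median of −0.01. The libraries with the Crebl2 siRNA lay wholly above those with the Luc siRNA in 36 genes in ethanol and 26 in rapamycin, as did 25.9% and 22.9% of all tested genes. Among the 26 genes with at least 90% countable bases, all 26 fell with rapamycin under each siRNA. With the Crebl2 siRNA 23 rose in ethanol and 20 in rapamycin. A separate fit held only the 8381 genes with at least 90% countable bases. In it, 47.9% and 51.4% were called either way with rapamycin under the Luc and Crebl2 siRNAs. For the Crebl2 siRNA the shares were 44.5% in ethanol and 38.7% in rapamycin.

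**Figure D1:**
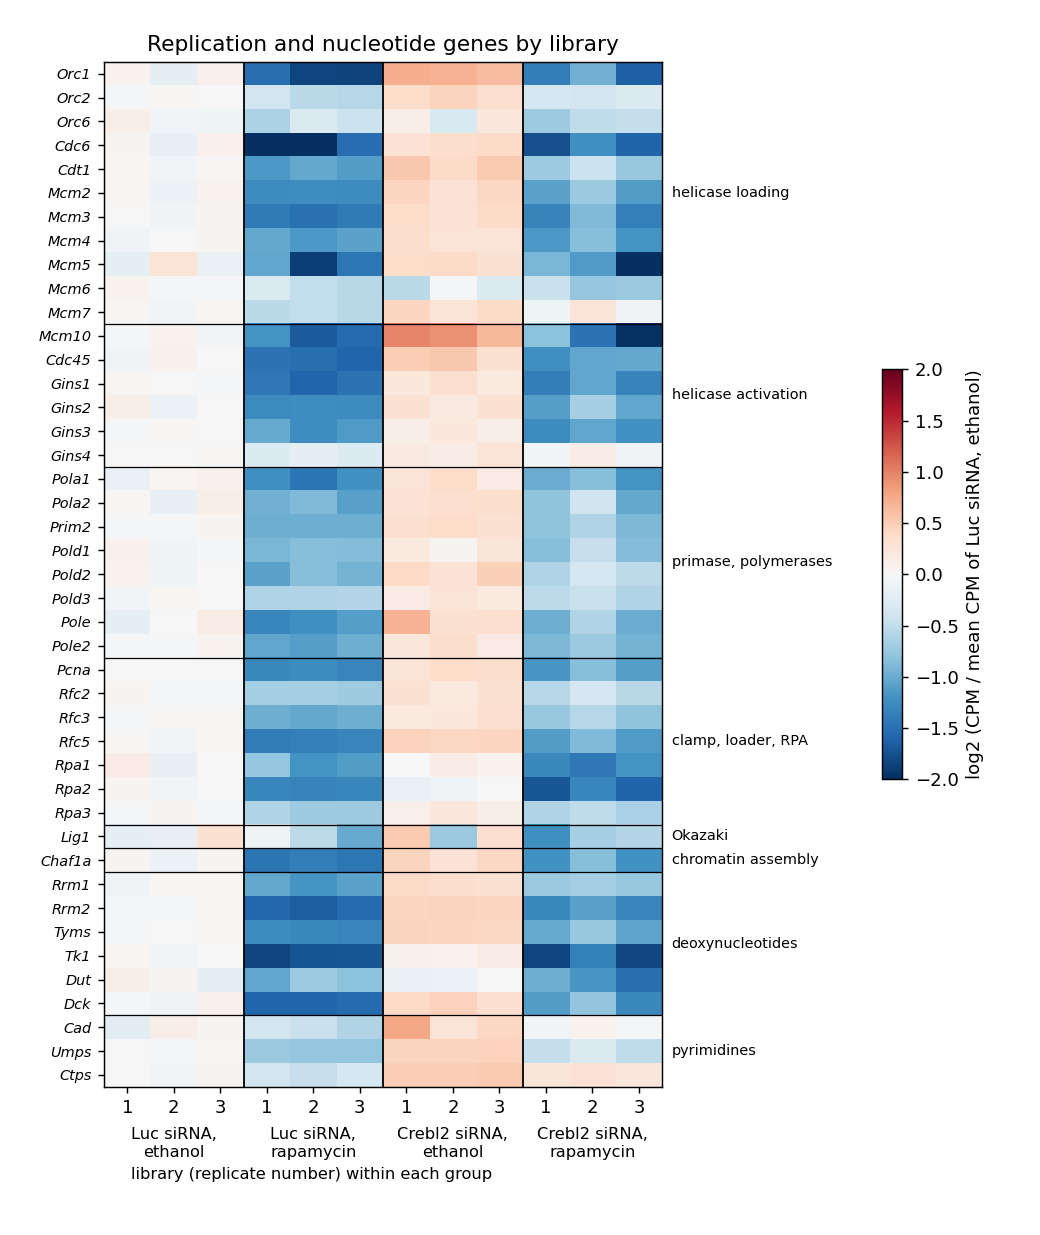
Log2 ratio of the CPM in each of the 12 libraries (columns, grouped by siRNA and treatment) to the mean of the Luc siRNA libraries in ethanol, for the 43 tested genes (rows, ordered by role); a value of 0.01 CPM was added to both, and colours stop at ratios of -2 and 2. Both rapamycin groups are blue in nearly every row, the Crebl2 siRNA in ethanol is pale red in most, and library 2 of the Crebl2 siRNA in rapamycin is paler than its partners.

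The promoters of these genes were read for short words. RefSeq promoters on GRCm38.p6, 250 bases before to 50 after a start, were at hand for 45 of the 53 genes (54 promoters). The E2F words searched on both strands were TTTGGCGC, TTTCCCGC, TTTCGCGC and TTTGCCGC. At least 1 of them stood in 15 of 54 promoters (27.8%, exact 95% interval 16.5 to 41.6), in 3.76% of 11347 promoters of tested genes and in 2.26% of all 32851 promoters. In the 250 bases before the start alone, the shares were 16.7% and 3.11%. The median GC content was 60.7% for the list and 60.3% for promoters of tested genes. Below are 30 bases around a word in 7 of these genes, each on the strand of the gene, with the matched words in capitals. Each was chosen for holding a searched word, so the recurring letters follow from that choice. Uhrf1 and Rfc3 also held a word before the start and are not shown. The 7 genes are of the loader (Orc1, Cdc6), the helicase ring (Mcm5, Mcm6, Mcm7), GINS (Gins3) and polymerase alpha (Pola1).
Orc1, chr4:108579416-108579445, plus strand: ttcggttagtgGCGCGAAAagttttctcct
Cdc6, chr11:98908002-98908031, plus strand: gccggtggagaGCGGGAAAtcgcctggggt
Mcm5, chr8:75109345-75109374, plus strand: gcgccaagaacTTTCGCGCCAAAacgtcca
Mcm6, chr1:128359797-128359826, minus strand: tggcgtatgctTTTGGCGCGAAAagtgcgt
Mcm7, chr5:138172030-138172059, minus strand: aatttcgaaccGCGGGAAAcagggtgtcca
Gins3, chr8:95633507-95633536, plus strand: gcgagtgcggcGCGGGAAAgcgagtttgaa
Pola1, chrX:93632275-93632304, minus strand: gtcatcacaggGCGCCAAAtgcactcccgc
In Mcm5 and Mcm6 the capitals hold 2 overlapping words on opposite strands, and Mcm6 held another word nearer the start. CCAAT, the box bound by NF-Y, stood in 51.9% of the list's promoters and 37.9% of promoters of tested genes. TTTGAA, the core of the cell cycle homology region common in mitotic promoters, stood in 18.5% and 12.2%. For 23 of 29 mitotic genes (24 promoters) the shares were 83.3% for CCAAT, 75.0% for TTTGAA and 4.17% for the E2F words. In the 250 bases before the start alone, TTTGAA stood in 29.2% of the mitotic promoters, 14.8% of the list's and 10.8% of those of tested genes. A match is a description of the letters, and binding was not measured here. Whether genes with a word changed more than genes without one was not tested. With rapamycin and the Luc siRNA, the 7 genes shown ranged from −0.45 (Mcm6) to −1.86 (Cdc6) on the log2 scale.

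Helicase loading held 11 tested genes. All 11 fell with rapamycin under the Luc siRNA, 7 of them at least 2-fold, and 10 under the Crebl2 siRNA. With the Crebl2 siRNA, 7 rose in ethanol and 5 in rapamycin. Here and in each later role the shares to compare are those of all tested genes. With rapamycin, 21.6% and 25.6% were called lower under the Luc and Crebl2 siRNAs, and 4.0% and 3.99% at least 2-fold lower. With the Crebl2 siRNA, 21.4% were called higher in ethanol and 16.3% in rapamycin. Orc1, the ATPase subunit of the origin recognition complex whose level follows the cell cycle, was at 14.6, 12.1 and 14.7 CPM in the 3 Luc siRNA libraries in ethanol and at 4.83, 3.86 and 3.82 CPM in rapamycin. In cells with the Crebl2 siRNA it was at 22.9, 22.4 and 21.1 CPM in ethanol and 5.31, 7.11 and 4.44 CPM in rapamycin. The rapamycin and ethanol libraries did not overlap under either siRNA, and the Crebl2 siRNA libraries in ethanol were the highest of all. The fall with rapamycin was −1.73 (SE 0.14, edgeR adjusted p 1.1e-07) under the Luc siRNA and −1.98 (SE 0.14, edgeR adjusted p 1.2e-08) under the Crebl2 siRNA. The rise with the Crebl2 siRNA was 0.68 (SE 0.13, edgeR adjusted p 0.00052) in ethanol. In rapamycin it was 0.43 (SE 0.15, edgeR adjusted p 0.038), a call lost without library 2 of the Crebl2 siRNA in rapamycin (log2 fold change 0.26, edgeR adjusted p 0.20) or without library 2 or 3 of the Luc siRNA in rapamycin. An antisense neighbour covers 11.9% of Orc1's exonic bases, and the strand setting of the counting was not given.

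Orc2, another subunit of the same complex, changed less with rapamycin than Orc1 did. It was at 24.1, 25.4 and 25.1 CPM in ethanol and 19.1, 17.1 and 16.8 CPM in rapamycin with the Luc siRNA, and at 32.0, 34.1 and 31.5 and 19.5, 19.2 and 20.3 CPM with the Crebl2 siRNA. Both falls were free of overlap, at −0.50 (SE 0.06, edgeR adjusted p 1e-05) and −0.73 (SE 0.06, edgeR adjusted p 1.2e-07). The rise with the Crebl2 siRNA was 0.38 (SE 0.06, edgeR adjusted p 0.00013) in ethanol. In rapamycin the value was 0.15 (SE 0.06, edgeR adjusted p 0.074), not called. It passed with all libraries under RLE scaling in edgeR (log2 fold change 0.18, adjusted p 0.037) and in DESeq2 (0.18, adjusted p 0.047), and without library 1 of the Luc siRNA in rapamycin (0.24, edgeR adjusted p 0.014). Its countable share was 55.4%, and 23.98% of its exonic bases lie opposite another gene. Orc6, measured on 27.5% of its bases, fell by 0.44 and 0.60 on the log2 scale with rapamycin, and its siRNA values were 0.03 in ethanol and −0.13 in rapamycin, neither called.

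Cdc6, the ATPase that joins the origin recognition complex to load the helicase, had the largest called fall with rapamycin under the Luc siRNA. Its libraries were at 4.35, 3.71 and 4.45 CPM in ethanol and 1.03, 0.983 and 1.44 CPM in rapamycin, and with the Crebl2 siRNA at 5.12, 5.34 and 5.44 and 1.22, 1.77 and 1.37 CPM. Rapamycin and ethanol were far apart, while the siRNA groups were separate in ethanol and overlapped in rapamycin. The falls were −1.86 (SE 0.16, edgeR adjusted p 2.4e-07) and −1.87 (SE 0.16, edgeR adjusted p 1.2e-07). The siRNA values, 0.35 (SE 0.14, edgeR adjusted p 0.063) in ethanol and 0.34 (SE 0.18, edgeR adjusted p 0.18) in rapamycin, did not pass, although without library 3 of the Luc siRNA in rapamycin the latter did (0.56, edgeR adjusted p 0.046). These reads come from 50.03% of the gene's bases, at 1.74 CPM per kilobase of countable bases. Cdt1, its partner in loading, was measured on all its bases and went from 68.6 ± 2.3 to 32.1 ± 1.5 CPM with the Luc siRNA (log2 fold change −1.10) and from 95.8 ± 6.0 to 44.3 ± 5.6 CPM with the Crebl2 siRNA (−1.11). Its rises with the Crebl2 siRNA, 0.48 in ethanol and 0.47 in rapamycin, were both called.

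The 6 subunits of the Mcm ring did not fall by the same amount. Mcm2 was at 249, 224 and 256 CPM in ethanol and 101, 103 and 101 CPM in rapamycin with the Luc siRNA, and at 326, 298 and 324 and 116, 145 and 112 CPM with the Crebl2 siRNA. Rapamycin left it at 42.0% of its ethanol level with the Luc siRNA. The falls were −1.25 (SE 0.08, edgeR adjusted p 7.4e-09) and −1.34 (SE 0.08, edgeR adjusted p 2.4e-09), and the rises with the Crebl2 siRNA were 0.38 (SE 0.08, edgeR adjusted p 0.0013) in ethanol and 0.29 (SE 0.08, edgeR adjusted p 0.012) in rapamycin. Mcm3 followed it, with falls of 1.44 and 1.53 on the log2 scale and called rises of 0.35 and 0.26. The latter call was lost without any 1 of 5 libraries, with edgeR adjusted p from 0.052 to 0.12.

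Mcm4 was at 198, 209 and 216 CPM in ethanol and 102, 93.5 and 99.3 CPM in rapamycin with the Luc siRNA. The Crebl2 siRNA libraries were at 264, 250.2 and 249 and 93.9, 115 and 90.6 CPM, so that the siRNA groups were separate in ethanol and overlapped in rapamycin. Its rise was 0.29 (SE 0.07, edgeR adjusted p 0.0041) in ethanol and its value 0.02 (SE 0.07, edgeR adjusted p 0.84) in rapamycin. The 2 rapamycin falls, −1.08 and −1.35, differed by −0.27 (SE 0.10, edgeR adjusted p 0.23), which did not pass.

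Mcm7 had the smallest fall of the fully or mostly counted ring subunits. It was at 109, 104 and 111 CPM in ethanol and 74.2, 76.5 and 73.5 CPM in rapamycin with the Luc siRNA, and at 145, 130.3 and 141 and 101, 129.6 and 103 CPM with the Crebl2 siRNA. Its 3 libraries with the Crebl2 siRNA in rapamycin thus lay on both sides of those with the Luc siRNA in ethanol. The falls were −0.53 (SE 0.08, edgeR adjusted p 4.1e-05) and −0.32 (SE 0.08, edgeR adjusted p 0.0025), and the rises 0.37 (SE 0.08, edgeR adjusted p 0.0012) in ethanol and 0.58 (SE 0.08, edgeR adjusted p 3.4e-05) in rapamycin. Mcm7 was counted on 54.4% of its bases, and 13.0% lie opposite another gene. Mcm5 and Mcm6 were counted on 24.7% and 33.9% of theirs, at 1.88 and 2.20 CPM per kilobase of countable bases, against 57.9 to 79.5 for Mcm2, Mcm3 and Mcm4, so their values describe only transcripts with bases of their own. Mcm5 fell by 1.44 and 1.64 on the log2 scale. Mcm6 fell with the Luc siRNA (−0.45, edgeR adjusted p 0.022, but 0.068 to 0.070 without library 3 in rapamycin or library 1 in ethanol) and did not pass with the Crebl2 siRNA (−0.38, edgeR adjusted p 0.055).

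**Figure D2:**
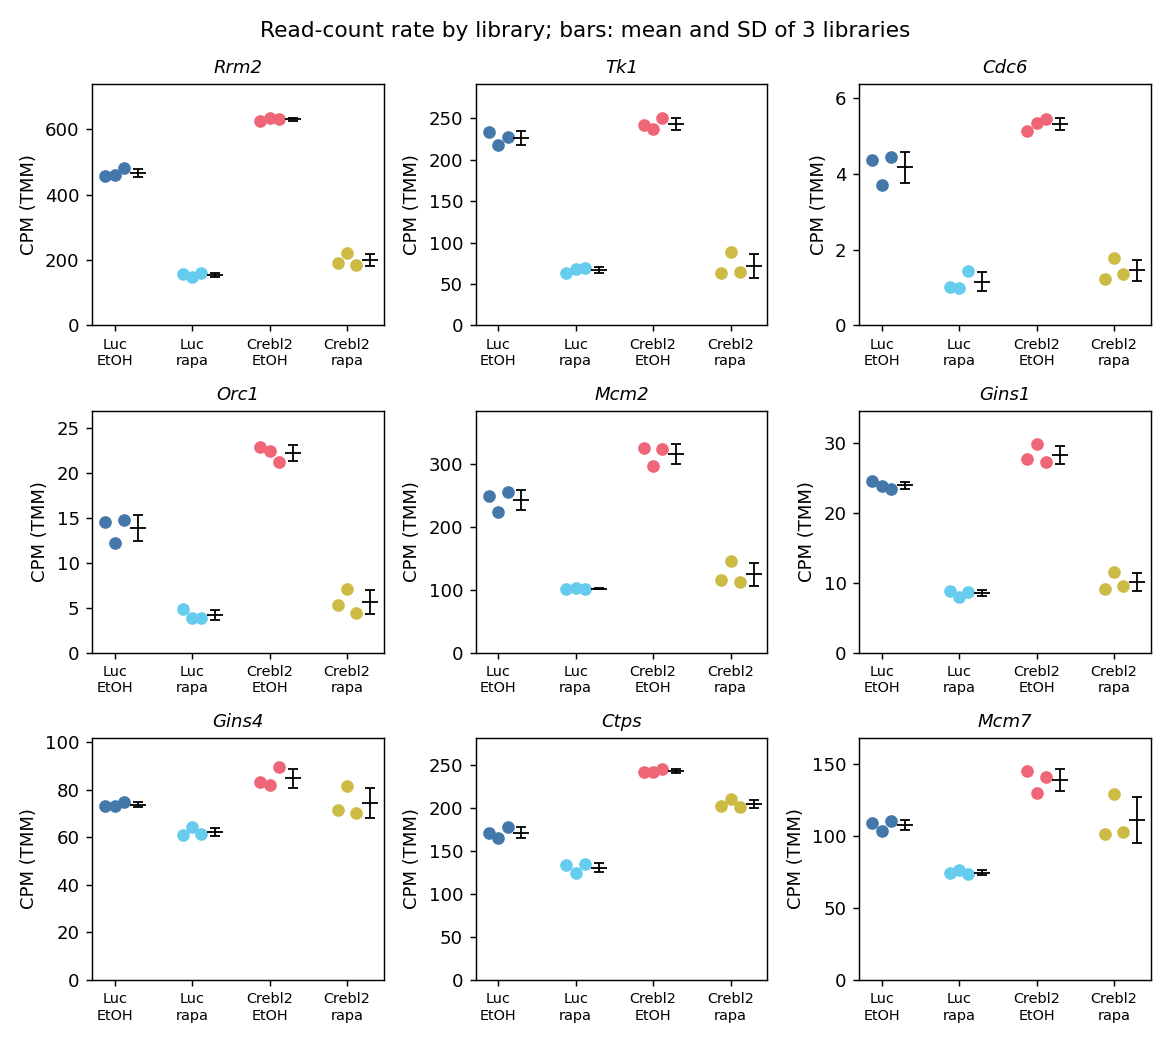
CPM of 9 genes in each of the 12 libraries (points) by group, with the mean and SD of 3 libraries (black bars); each axis starts at 0. In Rrm2, Tk1, Cdc6, Orc1, Mcm2 and Gins1 the rapamycin libraries lie far below ethanol under both siRNAs, while in Gins4, Ctps and Mcm7 the groups lie closer together.

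Helicase activation held 6 tested genes, which all fell with rapamycin under each siRNA, 5 of them at least 2-fold in both. Of the 6, 5 rose with the Crebl2 siRNA in ethanol and 4 in rapamycin. Mcm10, which binds the helicase as origins fire, had the largest called rise with the Crebl2 siRNA in ethanol, but on few reads. It was at 1.21, 1.28 and 1.18 CPM in ethanol and 0.527, 0.378 and 0.415 CPM in rapamycin with the Luc siRNA, and at 2.42, 2.31 and 1.94 and 0.691, 0.435 and 0.304 CPM with the Crebl2 siRNA. The siRNA groups were separate in ethanol and overlapped in rapamycin. The rise in ethanol was 0.86 (SE 0.19, edgeR adjusted p 0.0023), and the falls with rapamycin were −1.48 (SE 0.24, edgeR adjusted p 0.00013) and −2.19 (SE 0.22, edgeR adjusted p 9.3e-07). Only 31.2% of its bases were countable, and the difference between its falls, −0.72 (SE 0.34, edgeR adjusted p 0.36), did not pass.

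GINS is a complex of Gins1 to Gins4, and its members parted in the size of their falls. Gins1 was at 24.5, 23.8 and 23.4 CPM in ethanol and 8.82, 7.99 and 8.60 CPM in rapamycin with the Luc siRNA, and at 27.7, 29.7 and 27.3 and 9.14, 11.6 and 9.46 CPM with the Crebl2 siRNA. Rapamycin left it at 35.4% of the ethanol level with the Luc siRNA, with falls of −1.50 (SE 0.08, edgeR adjusted p 1.5e-09) and −1.49 (SE 0.08, edgeR adjusted p 1e-09). Its rises with the Crebl2 siRNA were 0.24 (SE 0.08, edgeR adjusted p 0.023) in ethanol and 0.25 (SE 0.09, edgeR adjusted p 0.042) in rapamycin. Leaving out 1 library ended the first call in 6 of 12 cases (edgeR adjusted p 0.051 to 0.084) and the second in 7 (0.050 to 0.16).

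Gins4 went from 73.7 ± 1.0 to 62.2 ± 1.8 CPM with the Luc siRNA and from 84.7 ± 4.1 to 74.3 ± 6.4 CPM with the Crebl2 siRNA, log2 fold changes of −0.25 and −0.19, the smallest of the list. The fall under the Crebl2 siRNA lost its call without library 1 or 3 in rapamycin or library 3 in ethanol (edgeR adjusted p 0.063 to 0.17). Gins3 fell by 1.13 and 1.32 on the log2 scale, and Gins2 by 1.26 and 1.19, but 70.7% of Gins2 lies opposite another gene, so its reads cannot be assigned with certainty. All 3 were measured on at least 82.9% of their bases. Cdc45, which completes the active helicase, was counted on 18.5% of its bases and fell by 1.53 and 1.55 on the log2 scale.

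Primase and the replicative polymerases held 8 tested genes, which all fell with rapamycin under each siRNA, 3 of them at least 2-fold with the Luc siRNA and 5 with the Crebl2 siRNA. In ethanol 7 rose with the Crebl2 siRNA, and in rapamycin 4. Prim2, the large primase subunit that helps lay down RNA primers, was at 55.1, 55.4 and 58.9 CPM in ethanol and 28.8, 28.6 and 28.7 CPM in rapamycin with the Luc siRNA. The corresponding Crebl2 siRNA libraries were at 70.4, 72.5 and 70 and 32.2, 37.1 and 30.4 CPM. None of the 4 groups overlapped, and the falls were −0.98 (SE 0.06, edgeR adjusted p 6.5e-09) and −1.09 (SE 0.06, edgeR adjusted p 1.1e-09). The rises were 0.33 (SE 0.06, edgeR adjusted p 0.00045) in ethanol and 0.21 (SE 0.06, edgeR adjusted p 0.018) in rapamycin, and without library 2 of the Crebl2 siRNA in rapamycin the latter did not pass (0.15, edgeR adjusted p 0.058).

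The other 7 ranged in their fall with the Luc siRNA from −0.60 in Pold3 to −1.29 in Pola1. Pola1, the catalytic subunit of polymerase alpha that extends the primers, went from 89.4 ± 7.4 to 36.5 ± 3.4 CPM. The catalytic subunit of polymerase epsilon, Pole, which copies the leading strand, fell by 1.21 on the log2 scale and its partner Pole2 by 1.04. Of polymerase delta, which copies the lagging strand, the catalytic subunit Pold1 fell by 0.88, Pold2 by 0.96 and Pold3 by 0.60. Pold2 also had the largest called rise of these 8 genes with the Crebl2 siRNA in rapamycin, at 0.47 (SE 0.07, edgeR adjusted p 0.00018), whereas Pold1 did not pass in either siRNA comparison (0.17 and 0.16). Pola2 and Pold3 were counted on 32.2% and 46.4% of their bases, and the rise of Pola2 in ethanol (0.32) lost its call in 9 of the 12 fits that left out 1 library (edgeR adjusted p 0.056 to 0.15). That of Pola1 in ethanol (0.27) did so without library 2 of the Crebl2 siRNA or library 1 of the Luc siRNA in ethanol (edgeR adjusted p 0.082 to 0.090).

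The clamp, its loader and the single-strand binding protein held 7 tested genes, all lower with rapamycin under each siRNA, 4 of them at least 2-fold in both. Of the 7, 5 rose with the Crebl2 siRNA in ethanol and 4 in rapamycin. Pcna, the ring that tethers polymerases, went from 184 ± 1.2 to 75.2 ± 1.3 CPM with the Luc siRNA, a log2 fold change of −1.29 (SE 0.06, edgeR adjusted p 3.9e-10). Under the Crebl2 siRNA it went from 231 ± 8.4 to 89.9 ± 10.4 CPM. Rfc5, a subunit of the loader that opens this ring, was at 64.3, 61.4 and 64.9 CPM in ethanol and 24.2, 24.6 and 25.5 CPM in rapamycin with the Luc siRNA, and at 87.7, 84.8 and 86.0 and 29.2, 34.3 and 28.9 CPM with the Crebl2 siRNA. No 2 groups overlapped. Its falls were −1.36 (SE 0.06, edgeR adjusted p 1.9e-10) and −1.49 (SE 0.06, edgeR adjusted p 4.4e-11), and its rises 0.44 (SE 0.06, edgeR adjusted p 2.5e-05) in ethanol and 0.31 (SE 0.06, edgeR adjusted p 0.0011) in rapamycin. An antisense neighbour covers 15.4% of its bases, as another does 19.1% of Rfc2.

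Within the loader the fall with the Luc siRNA was −0.68 for Rfc2, −0.99 for Rfc3 and −1.36 for Rfc5. The 3 subunits of replication protein A, which coats single-stranded DNA, had low siRNA values. Rpa2 was at 89.8 ± 3.1 CPM with the Luc siRNA and 85.5 ± 4.1 CPM with the Crebl2 siRNA in ethanol, and at 36.1 ± 0.49 and 31.2 ± 4.7 CPM in rapamycin. Its siRNA values were −0.07 (SE 0.07, edgeR adjusted p 0.49) in ethanol and −0.21 (SE 0.08, edgeR adjusted p 0.053) in rapamycin, and without library 2 of the Crebl2 siRNA in rapamycin the latter passed as a fall (−0.31, edgeR adjusted p 0.0013). Rpa1, counted on 44.0% of its bases, had siRNA values of 0.07 and −0.29, neither called. Rpa3 rose in ethanol by 0.15, a call lost in 10 of the 12 fits that left out 1 library (edgeR adjusted p 0.059 to 0.15). With rapamycin and the Luc siRNA, Rpa1 fell by 1.02, Rpa2 by 1.32 and Rpa3 by 0.69 on the log2 scale.

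Lig1, the ligase that seals Okazaki fragments, and Chaf1a, the large subunit of the assembly factor that places new histones behind the fork, were the only tested genes of their roles. Lig1 was at 0.443, 0.452 and 0.632 CPM in ethanol and 0.471, 0.353 and 0.249 CPM in rapamycin with the Luc siRNA, and at 0.739, 0.3001 and 0.647 and 0.212, 0.319 and 0.335 CPM with the Crebl2 siRNA. The groups overlapped in the Luc siRNA comparison, at −0.50 (SE 0.34, edgeR adjusted p 0.27). Under the Crebl2 siRNA a fall of −0.99 (SE 0.36, edgeR adjusted p 0.034) passed, on 15.9% of the gene's bases, but not without any 1 of 5 of those 6 libraries (edgeR adjusted p 0.059 to 0.15).

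Chaf1a was measured at 106, 93.6 and 107 CPM in ethanol and 37.1, 39.3 and 37.4 CPM in rapamycin with the Luc siRNA. Under the Crebl2 siRNA it stood at 139, 125 and 136 and 44.2, 56.8 and 44.1 CPM. The groups did not overlap in any of the 4 comparisons. Its falls were −1.43 (SE 0.09, edgeR adjusted p 3.1e-09) and −1.46 (SE 0.08, edgeR adjusted p 1.5e-09), and its rises 0.39 (SE 0.08, edgeR adjusted p 0.0015) in ethanol and 0.35 (SE 0.09, edgeR adjusted p 0.0055) in rapamycin. A gene on the other strand covers 33.6% of its exonic bases.

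The enzymes of deoxynucleotide supply (6 tested) had the steepest median fall with rapamycin among the roles with at least 3 tested genes, −1.43 with the Luc siRNA, and all 6 fell under each siRNA. Rrm2, the small subunit of ribonucleotide reductase and its S-phase-limited part, had the highest level of the list in ethanol with the Luc siRNA, 213 CPM per kilobase among the genes with at least 90% countable bases. It was at 459, 460.0 and 481 CPM in ethanol and 157, 148 and 161 CPM in rapamycin with the Luc siRNA. With the Crebl2 siRNA it was at 627, 636 and 631 and 190.5, 221 and 186 CPM. Rapamycin thus left it at 33.3% and 31.5% of its ethanol level, and no 2 groups overlapped. The falls were −1.59 (SE 0.06, edgeR adjusted p 5.9e-11) and −1.66 (SE 0.06, edgeR adjusted p 1.9e-11), and the rises 0.44 (SE 0.06, edgeR adjusted p 2.4e-05) in ethanol and 0.36 (SE 0.06, edgeR adjusted p 0.00019) in rapamycin. Rrm1, the large subunit, fell less, by 1.09 and 1.07 on the log2 scale, and rose by 0.35 and 0.36.

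Tk1, the S-phase thymidine kinase of the salvage route, was at 234, 218 and 228 CPM in ethanol and 63.2, 68.5 and 69.2 CPM in rapamycin with the Luc siRNA, and at 242, 237 and 251 and 63.3, 88.6 and 64.0 CPM with the Crebl2 siRNA. It had one of the largest falls, −1.76 (SE 0.10, edgeR adjusted p 1.2e-09) and −1.76 (SE 0.10, edgeR adjusted p 8.1e-10). The Crebl2 siRNA values did not pass, at 0.10 (SE 0.09, edgeR adjusted p 0.41) in ethanol and 0.10 (SE 0.10, edgeR adjusted p 0.45) in rapamycin. Tk1 therefore combined a fall to 29.6% of its ethanol level with small siRNA values.

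Dck, the deoxycytidine kinase of the same route, was at 88.7, 86.3 and 96.5 CPM in ethanol and 30.2, 30.2 and 31.2 CPM in rapamycin with the Luc siRNA. Its Crebl2 siRNA libraries were at 119, 125 and 114 and 41.6, 52.1 and 37.0 CPM. Groups were separate in every comparison, with falls of −1.57 (SE 0.09, edgeR adjusted p 2.4e-09) and −1.45 (SE 0.09, edgeR adjusted p 3.2e-09) and rises of 0.40 (SE 0.09, edgeR adjusted p 0.0018) in ethanol and 0.51 (SE 0.09, edgeR adjusted p 0.00054) in rapamycin. Tyms, which makes thymidylate, fell by 1.29 and 1.37 on the log2 scale and rose by 0.43 and 0.35. Dut, which removes dUTP, fell by 0.86 and 1.11 on 62.6% of its bases, and its siRNA values were −0.08 and −0.34, neither called.

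Pyrimidine synthesis (3 tested) had the smallest median fall with rapamycin of the roles with at least 3 tested genes (−0.47 with the Luc siRNA) and the largest median rise with the Crebl2 siRNA (0.50 in ethanol). With 3 genes, both medians are the values of Cad, the tested gene with the smallest countable share. All 3 genes were lower with rapamycin under each siRNA, none of them 2-fold, and all 3 were higher with the Crebl2 siRNA in both treatments. Ctps, the enzyme that makes CTP from UTP, was at 171, 165 and 179 CPM in ethanol and 133, 125 and 135 CPM in rapamycin with the Luc siRNA. With the Crebl2 siRNA it was at 242, 243 and 246 and 203, 210.3 and 202 CPM. All 6 libraries with the Crebl2 siRNA were thus above all 6 with the Luc siRNA, whatever the treatment. The rises were 0.50 (SE 0.04, edgeR adjusted p 4.4e-07) in ethanol and 0.65 (SE 0.04, edgeR adjusted p 3.7e-08) in rapamycin, and the falls −0.39 (SE 0.04, edgeR adjusted p 3.4e-06) and −0.25 (SE 0.04, edgeR adjusted p 0.00023).

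Umps, which completes UMP, was at 93.0, 90.7 and 96.0 CPM in ethanol and 56.0, 54.7 and 54.4 CPM in rapamycin with the Luc siRNA, and at 127, 126 and 128 and 67.1, 76.7 and 65.3 CPM with the Crebl2 siRNA. Again no 2 groups overlapped. Its falls were −0.76 (SE 0.05, edgeR adjusted p 2.1e-08) and −0.87 (SE 0.05, edgeR adjusted p 3.3e-09), and its rises 0.45 (SE 0.05, edgeR adjusted p 9.5e-06) in ethanol and 0.34 (SE 0.05, edgeR adjusted p 0.00019) in rapamycin. Cad, the enzyme of the first 3 steps of the pathway, was counted on 5.45% of its bases, at 4.99, 6.35 and 5.99 CPM in ethanol and 4.49, 4.23 and 3.82 CPM in rapamycin with the Luc siRNA, and at 9.89, 6.93 and 7.72 and 5.58, 6.09 and 5.63 CPM with the Crebl2 siRNA. Its falls were −0.47 (SE 0.14, edgeR adjusted p 0.012) and −0.51 (SE 0.13, edgeR adjusted p 0.0050), and its rises 0.50 (SE 0.13, edgeR adjusted p 0.0064) in ethanol and 0.46 (SE 0.14, edgeR adjusted p 0.017) in rapamycin. The first fall did not pass without library 2 of the Luc siRNA in ethanol (−0.39, edgeR adjusted p 0.057), nor the rise in rapamycin without library 3 of the Luc siRNA in rapamycin (0.43, edgeR adjusted p 0.055).

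Levels of different genes were compared only per kilobase of countable bases and among the 26 genes with at least 90% countable, in the Luc siRNA libraries in ethanol. After Rrm2 came Tk1 (157 CPM per kilobase), Pcna (121), Rrm1 (106), Mcm3 (79.5) and Mcm2 (72.1). At the low end stood Pola1 (16.7), Gins2 (12.2) and Orc1 (4.58). Of the GINS subunits, Gins1 was at 22.0 and Gins4 at 54.6. The value of Gins2 is uncertain, as 70.7% of it lies opposite another gene.

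Whether the Crebl2 siRNA altered the response to rapamycin was tested as the interaction, the difference between the log2 change in cells with the Crebl2 siRNA and that in Luc siRNA cells. None of the 43 genes was called by edgeR, with 3 at an unadjusted p under 0.05 and a smallest adjusted p of 0.23, while 1.2% of all tested genes were called. DESeq2 called none either, with 4 at an unadjusted p under 0.05. The median was −0.07 (range −0.72 to 0.21), against −0.03 over all tested genes. The 3 smallest p-values belonged to Mcm4, Orc2, with −0.23 (SE 0.09, edgeR adjusted p 0.24), and Ctps, with 0.14 (SE 0.06, edgeR adjusted p 0.3). The 95% intervals lay within a 2-fold difference in 41 of 43 genes, and in all 26 with at least 90% countable bases, where they ran from −0.67 to 0.38. With no filter on low counts Mcm7 was called (0.27, edgeR adjusted p 0.0499).

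The rapamycin comparisons share no library, so their values can be set side by side. Of the 42 genes that fell with each siRNA, 41 were the same (97.6% of each list), with Mcm6 called only with the Luc siRNA and Lig1 only with the Crebl2 siRNA. Over all tested genes, 84.8% of those called lower with the Luc siRNA were called lower with the Crebl2 siRNA, and 71.6% the other way round. Pearson's r over the 43 genes was 0.93, and 31 fell more with the Crebl2 siRNA, a negative interaction value. The interaction value was also negative in 7460 of the 13247 tested genes. None of the 43 was called for it, and their median ran from −0.12 to 0.039 when 1 library was left out. All points share the 12 libraries, and genes are not independent replicates.

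**Figure D3:**
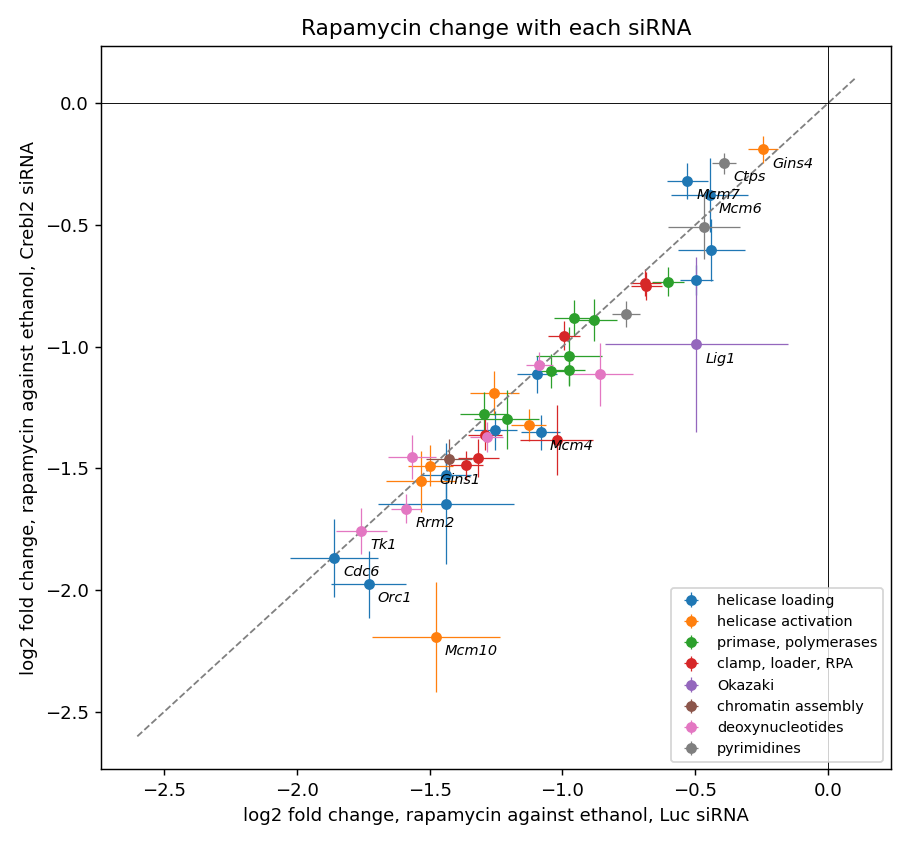
Log2 fold change with rapamycin under the Luc siRNA (x axis) and under the Crebl2 siRNA (y axis) for the 43 tested genes, coloured by role, with SE bars; the dashed line marks equal change. All points lie below 0 on both axes and most lie near the line, with Mcm10 the farthest below it and Mcm7 above it.

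The 2 siRNA comparisons also share no library. All 25 genes that rose in rapamycin had risen in ethanol, which is 78.1% of the 32 there. Over all tested genes the shares were 77.8% and 59.2%. The 7 genes called only in ethanol were Mcm4, Mcm10, Orc2, Pola2, Pold3, Pole2 and Rpa3, and Pearson's r over the 43 genes was 0.72. These differences between ethanol and rapamycin did not pass the interaction test. Leaving out each of the 12 libraries in turn, 26 of the 32 rises in ethanol and 17 of the 25 in rapamycin were called every time, against 40 of the 42 falls with rapamycin under each siRNA. Under at least 1 of the 9 other settings, all libraries kept, the rises of Rpa3, Pola2 and Pold3 in ethanol (adjusted p 0.052 to 0.21) and of Mcm3, Cdc45, Gins1, Orc1 and Pole in rapamycin (0.054 to 0.11) were not called. The rapamycin falls of Gins4 (0.061) and Lig1 (0.10) under the Crebl2 siRNA were not either. In rapamycin Orc2, Pola2, Pold1 and Pole2 were then called higher and Rpa2 lower (0.012 to 0.047).

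**Figure D4:**
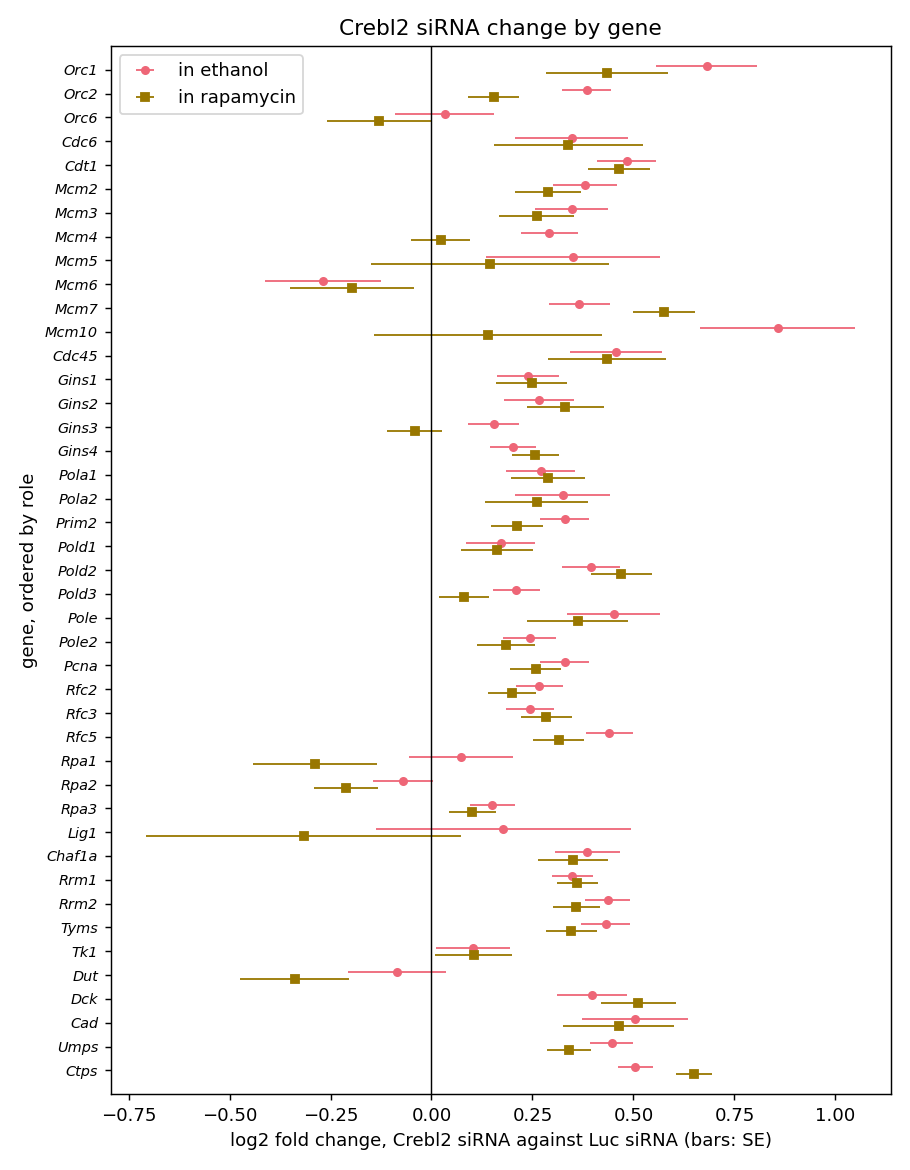
Log2 fold change of the Crebl2 siRNA against the Luc siRNA for the 43 tested genes in ethanol (circles) and in rapamycin (squares), with SE bars, ordered by role. Most points lie between 0.1 and 0.6; Mcm6, Rpa2 and Dut lie below 0 in both treatments.

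The 4 groups kept 1 order in most of the list. In 33 of the 43 genes the group means ran, from high to low, Crebl2 siRNA in ethanol, Luc siRNA in ethanol, Crebl2 siRNA in rapamycin and Luc siRNA in rapamycin, an order held by 14.3% of all tested genes. In Mcm7, Gins4 and Ctps the Crebl2 siRNA in rapamycin stood above the Luc siRNA in ethanol. In Mcm6, Rpa2 and Dut the Luc siRNA stood above the Crebl2 siRNA in both treatments, and in Gins3, Orc6, Rpa1 and Lig1 it did so only in rapamycin. The Luc siRNA in ethanol and the Crebl2 siRNA in rapamycin were not compared by a test.

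One library stood apart. Library 2 of the Crebl2 siRNA in rapamycin was the highest of its 3 in 34 of the 43 genes, with a median log2 difference of 0.24 from the mean of the other pair, where the 9 libraries of the other groups lay between −0.05 and 0.03. For 25 mitotic genes its median difference was 0.28, and over all tested genes 0.01. Without it, 18 genes rose and 1 fell with the Crebl2 siRNA in rapamycin (median 0.20), and 41 fell with rapamycin under the Crebl2 siRNA (median −1.30). Crebl2 itself stood at 8.97 CPM there, against 10.7 and 9.49 CPM in libraries 1 and 3.

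Beyond the list, 35 other replication factors (29 tested) moved the same way by less. With rapamycin and the Luc siRNA 25 of them fell (median −0.72), against 21.6% of all tested genes. With the Crebl2 siRNA in ethanol 20 rose (median 0.30), against 21.4%. The falls reached −1.82 in Dna2, a nuclease of Okazaki fragments, −1.71 in the checkpoint mediator Clspn and −1.71 in the topoisomerase Top2a. Pold4, the smallest subunit of polymerase delta, was the exception, at 96.7 ± 3.8 CPM in ethanol and 137 ± 7.5 CPM in rapamycin with the Luc siRNA and 119 ± 2.6 and 169 ± 18 CPM with the Crebl2 siRNA. It rose with rapamycin by 0.50 and 0.51 on the log2 scale (edgeR adjusted p 1.6e-05 and 9.3e-06), while Pold1, Pold2 and Pold3 fell.

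Nucleotide enzymes outside the list changed in both directions. Of 17 others of pyrimidine and deoxynucleotide metabolism (15 tested), 9 fell and 2 rose with rapamycin and the Luc siRNA (median −0.28). With the Crebl2 siRNA in ethanol 9 rose and 3 fell (median 0.31). Of all 13247 tested genes, 2860 (21.6%) were called lower and 2581 higher in the first comparison. In the second, 2836 (21.4%) were called higher and 2246 lower. The nucleoside diphosphate kinase Nme1 fell by 1.198 on the log2 scale with rapamycin. The 2 that rose were Samhd1, which breaks down deoxynucleotides (0.50, edgeR adjusted p 1.5e-07), and Rrm2b, the reductase subunit induced by p53 (0.22, edgeR adjusted p 0.014). Rrm2b, Tk2 and Dguok, which act in supply outside S phase, were the 3 that fell with the Crebl2 siRNA in ethanol (−0.23, −0.24 and −0.47), although Dguok was counted on 9.03% of its bases. In rapamycin the Crebl2 siRNA lowered Rrm2b by 0.40 (edgeR adjusted p 0.00023) and Tk2 by 0.23 (edgeR adjusted p 0.022). Dguok was not called there (−0.31, edgeR adjusted p 0.11). Rrm2b thus moved against Rrm1 and Rrm2 with rapamycin under the Luc siRNA and with the Crebl2 siRNA in both treatments. Under the Crebl2 siRNA its value with rapamycin was 0.04 (edgeR adjusted p 0.65), not called. Samhd1 rose less there, by 0.24 (edgeR adjusted p 0.00025), and its interaction was called (−0.27, edgeR adjusted p 0.046).

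Of 12 purine synthesis genes (11 tested), 7 fell and 1 rose with rapamycin and the Luc siRNA, with a median of −0.34 and none at least 2-fold, and 9 rose with the Crebl2 siRNA in ethanol (median 0.34). Pfas, an enzyme of the purine pathway, had the largest of these rises in ethanol, 0.58, and Ppat, its first committed step, the largest fall with rapamycin, −0.68. Of 29 mitotic genes (25 tested) all 25 fell at least 2-fold with rapamycin and the Luc siRNA (median −1.57), and 15 rose with the Crebl2 siRNA in ethanol (median 0.37). The fall with rapamycin was thus steeper in the mitotic than in the replication list by their medians, and smaller in purine synthesis. These lists were compared by counts and medians only. Of all tested genes, 21.6% were called lower with rapamycin and the Luc siRNA, and 4.0% at least 2-fold lower. With the Crebl2 siRNA in ethanol, 21.4% were called higher.

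**Figure D5:**
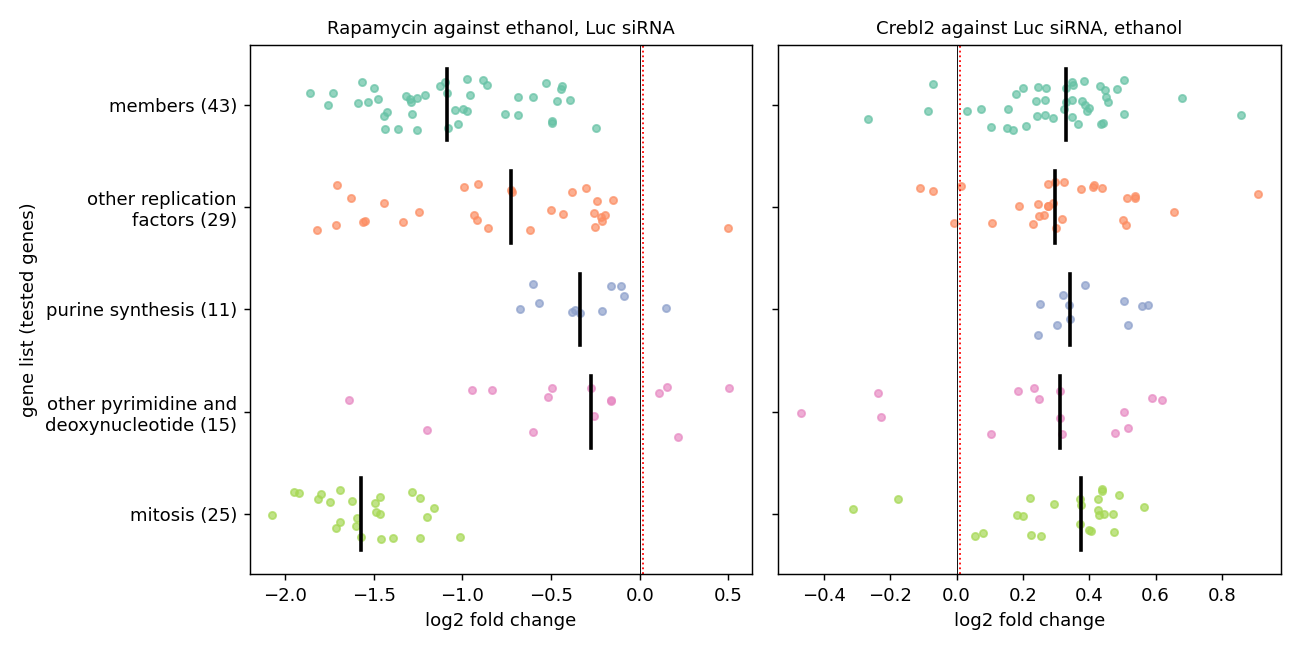
Log2 fold change of each tested gene (points, jittered) in 5 gene lists with the number tested, for rapamycin with the Luc siRNA (left) and the Crebl2 siRNA in ethanol (right); black bars are list medians and the red dotted line is the median of all tested genes. The replication and nucleotide list, labelled members, has medians of -1.09 and 0.33, and the mitotic list −1.57 and 0.37.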

How the data were processed

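Total RNA of 12 C2C12 libraries was sequenced from a stranded kit, per the labels' protocols. The authors deposited whole-number read counts per Ensembl transcript with no normalization (58611 transcripts per library, per the files' values). The submitters' processing notes name Trim Galore, TopHat and HTSeq and the builds mm9 and GRCm38; for settings, strand and the rule for shared reads, nothing was given in the sources used here. Transcripts were matched to GENCODE M21 on GRCm38 (99.4%; the other 347 held 0.038% of reads) and summed per gene, although the test designs had assumed counts per gene.

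Genes passing edgeR's filter by group (minimum count 10) were normalized by TMM. The fit was edgeR 4.0.16's quasi-likelihood model (R 4.3.3) over all 12 libraries. Adjusted p-values are Benjamini-Hochberg over 13247 genes. The variation between libraries of a group beyond counting noise, as estimated by edgeR, was 6.85%. On simulated counts the interaction test recovered 42.0% of 50 genes changed 1.5-fold and 60.4% of 48 changed 2-fold, among 13025 genes. The changed genes were drawn at random from all tested genes, so these shares do not describe the list. In the list, the 95% intervals of the interaction lay within a 1.5-fold difference in 37 of 43 genes. Confidence intervals are 95%. Alternatives were RLE scaling, DESeq2 1.42.0, other filters, a replicate block, fewer groups, transcripts singly, and leaving out each library.

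The genes and lists were chosen with earlier results of these data known. Library values are printed for the 3 largest called rises and falls in each comparison, the member with the smallest p per role for rapamycin with the Luc siRNA, and the 3 smallest p-values of the interaction. Members outside this rule, and genes outside the list, were named after their values were seen. For Cad, outside the rule, library values and fold changes were printed too. The rule had set members with under 10% countable bases to be named without a fold change.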

Additional observations from a re-analysis of the deposited data

How the results depend on the processing

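Across 9 other settings and 12 fits that each left out 1 library, no direction of the list changed in the 4 comparisons between groups. With only genes of at least 90% countable bases (26 of the list), 26 fell with rapamycin under the Luc siRNA (median −1.18) and 26 under the Crebl2 siRNA. Fewer genes were tested there, and 47.9% and 51.4% of the 8381 were called either way. Rpa2 was then called lower with the Crebl2 siRNA in rapamycin, so 1 gene fell there, as it did with a minimum count of 50, with no count filter and with protein-coding genes only. With no filter the interaction called 1 gene higher, Mcm7. Leaving out 1 library gave 28 to 32 rises in ethanol and 18 to 27 in rapamycin with the Crebl2 siRNA (0 to 1 falls, median 0.20 to 0.39), and 41 to 42 and 40 to 42 falls with rapamycin under the Luc and Crebl2 siRNAs (the latter with a median of −1.30 to −1.10). The interaction median ran from −0.12 to 0.039, turning positive without library 1 (0.034) or 3 (0.039) of the Crebl2 siRNA in rapamycin; the cause was not tested. Same-numbered libraries did not deviate together (correlation over 0.1 in 2 of 18 pairs, range −0.29 to 0.12), and a replicate block gave 30 and 21 rises, 42 and 42 falls and 0 interaction calls. Genes with a low countable share or under 1 CPM (Mcm10 in rapamycin, Lig1) limit what their fold changes can show.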
